A study of Mus musculus with 2 samples.

Results

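The Krüppel-like factors examined here are 10 mouse genes, Klf2, Klf3, Klf4, Klf5, Klf6, Klf7, Klf9, Klf10, Klf13 and Klf15, taken by symbol from the 23282 rows of the deposited gene count tables. They were read in the 2 groups that their known roles in fat cell formation give: Klf4, Klf5, Klf6, Klf9, Klf13 and Klf15 promote it, Klf2, Klf3 and Klf7 restrain it, and Klf10 was kept apart. Each symbol had 1 row. The cells were 3T3-L1, an established mouse embryonic fibroblast line with the ability to become fat cells under a hormone cocktail, and the labels describe them as adipocytes. One culture received an siRNA against Pink1, the gene for a mitochondrial kinase that marks damaged mitochondria, and the other a control siRNA. No genetic change, drug or time after transfection was given in the sources used here. There was 1 library per group, so every difference below is between 2 libraries and carries no test.

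Krüppel-like factors are DNA-binding proteins with 3 C2H2 zinc fingers at the carboxyl end, which recognise GC-rich and CACCC-type sequences in promoters. The amino-terminal parts differ and recruit either coactivators such as p300 or corepressors such as CtBP and Sin3a, so relatives that bind the same boxes can act in opposite directions. In 3T3-L1 differentiation several of them form a relay. Klf4 acts early with Krox20 (Egr2) on Cebpb, Klf5 is induced by C/EBP proteins and acts on Pparg, Klf6 represses the preadipocyte gene Dlk1, and Klf2 represses Pparg.

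The family also regulates its own members through CACCC boxes. For that reason the promoters of the 4 genes with the largest differences between the libraries among those found in the RefSeq promoter table are shown. The table (GRCm38.p6, the assembly behind mm10) held 8 of the 10 genes, and Klf5 and Klf10 had no entry. Each window runs 5′ to 3′ on the gene's strand, from 250 bases before to 50 bases after the start site that the table uses. Capitals mark CACCC on either strand, which reads GGGTG on the other. Klf7 and Klf4 had ratios above 1, Pink1 siRNA over control, and Klf13 and Klf3 ratios below 1.
Klf7, chr1:64121340-64121639, minus strand: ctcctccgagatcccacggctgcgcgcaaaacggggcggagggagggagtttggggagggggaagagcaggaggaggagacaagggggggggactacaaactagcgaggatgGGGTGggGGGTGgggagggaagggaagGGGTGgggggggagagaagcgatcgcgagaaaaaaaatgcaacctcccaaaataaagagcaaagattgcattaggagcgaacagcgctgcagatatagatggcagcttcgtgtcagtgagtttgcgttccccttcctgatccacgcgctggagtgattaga
Klf4, chr4:55532426-55532725, minus strand: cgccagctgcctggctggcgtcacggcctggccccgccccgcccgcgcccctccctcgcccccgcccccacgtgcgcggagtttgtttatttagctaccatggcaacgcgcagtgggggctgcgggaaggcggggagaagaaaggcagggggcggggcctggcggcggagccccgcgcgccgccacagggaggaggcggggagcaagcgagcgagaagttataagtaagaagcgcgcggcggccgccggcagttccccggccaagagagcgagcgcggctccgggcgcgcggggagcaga
Klf13, chr7:63938866-63939165, minus strand: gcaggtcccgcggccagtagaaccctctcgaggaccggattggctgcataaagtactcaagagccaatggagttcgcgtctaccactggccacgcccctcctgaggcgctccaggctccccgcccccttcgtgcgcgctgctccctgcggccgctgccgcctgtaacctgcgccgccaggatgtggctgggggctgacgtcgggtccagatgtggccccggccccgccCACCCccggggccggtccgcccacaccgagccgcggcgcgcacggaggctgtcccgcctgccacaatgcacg
Klf3, chr5:64803271-64803570, plus strand: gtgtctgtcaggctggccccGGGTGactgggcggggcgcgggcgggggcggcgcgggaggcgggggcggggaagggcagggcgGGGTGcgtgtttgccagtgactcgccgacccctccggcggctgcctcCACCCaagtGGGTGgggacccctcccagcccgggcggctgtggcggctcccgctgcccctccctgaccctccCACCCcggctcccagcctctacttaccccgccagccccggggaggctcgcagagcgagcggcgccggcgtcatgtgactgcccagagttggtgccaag

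The CACCC box was present 5 times in the Klf3 window, 3 times in that of Klf7, 1 time in that of Klf13 and 0 times in that of Klf4. In Klf7 the 3 copies lie close together, with first bases 138, 131 and 111 bases before the start site, and all 3 read GGGTG on the printed strand. The Klf7 window lies inside the gene's span, whose 5′ end is at base 64122345, so its start site is an internal one. Of the 8 Klf windows 6 held the box, against 57.5% of the 32851 windows in the table, so its presence is common to promoters in general. The GC box GGGCGG, searched on both strands, was in 7 of the 8 Klf windows and in 35.7% of all windows. It occurred 6 times in the Klf3 window, 4 times in that of Klf4, 3 times in that of Klf13 and 1 time in that of Klf7. CCAAT, also searched on both strands, was in 4 of 8 windows (37.4% of all). GGGCGG and the box read as GGGTG can share bases, which occurred for 1 box in Klf13 and 1 in Klf3. The 4 printed windows were GC-rich, from 58.3% in Klf7 to 76.7% in Klf3, against a median of 52.7% over the table. The box count did not sort the genes by direction, since Klf7 and Klf3 had the most copies and lay on opposite sides of a ratio of 1. A match is a description of letters and shows no binding.

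The control library held 13803174 counts and the Pink1 siRNA library 14214768. Levels are CPM, counts scaled to a library of standard size with effective library sizes from the trimmed mean of M values (TMM). The effective sizes had a ratio of 0.9999, Pink1 siRNA over control. Pink1 itself was at 36.5 CPM in the control library and 25.1 CPM in the Pink1 siRNA library (511 and 351 counts, ratio 0.687). It was not called at 1.5-fold, its interval widened for the spread among genes of similar level (explained below) was 0.444 to 1.05, and 45 of 583 such genes lay as far from 1. Of 15 adipocyte markers 14 had at least 40 counts over both libraries, with summed levels of 3052 and 3247 CPM, and Lep was at 0 in both. Of 12 preadipocyte and fibroblast markers 10 were measured, with summed levels of 20061 and 22370 CPM, and Dpp4 had 0 and 1 counts. Plin1 (275 and 167 counts) and Slc2a4 (49 and 25) were lower and Pi16 (20 and 69) higher at 1.5-fold among these markers. By that rule 6.64% of all measured genes were lower and 5.43% higher. Widened intervals lay above 1 for 4 preadipocyte and fibroblast markers and below 1 for 0. Among the adipocyte markers 0 lay above 1 and 1 below, Plin1 (0.365 to 0.994). Of all measured genes 2.08% lay above 1 and 1.93% below. The 4 preadipocyte and fibroblast markers above 1 were Dlk1, Col1a1, Thy1 and Pi16. Dlk1 and Col1a1 had log2 ratios of 0.16 and 0.20, which were common at their level. There 260 and 205 of 583 genes lay as far from 1, against 9 for Thy1 and 16 for Pi16 at theirs. The largest differences within that list's summed level were those of Dlk1, Col1a1 and Col3a1 (1003, 592 and 538 CPM). The smooth muscle list had 4 of 7 genes measured, 349.0 and 240.7 CPM in sum, with Cnn1 at 0 and Acta2 at 4408 and 2967 counts. Acta2 was the 1 measured gene of that list with a widened interval that left out 1 (0.509 to 0.886). None of 6 endothelial genes and 1 of 6 macrophage genes were measured, and Cdh5, Kdr, Tek, Vwf, Adgre1 and Itgam were at 0 in both libraries. The part of these differences in the Klf values was not tested. In such bulk RNA, fewer cells with a transcript and less transcript per cell cannot be told apart.

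As a family the 10 genes were transcribed at almost the same total level in the libraries, while the makeup of that total differed. Their counts summed to 17158 in the control library and 17200 in the Pink1 siRNA library, or 1225 and 1228 CPM. Klf5 and Klf7 were higher in the Pink1 siRNA library by the 1.5-fold rule given below. Klf4 had a ratio of 1.38, Klf13 of 0.743 and Klf3 of 0.819, outside counting error but short of that rule, and their intervals widened for the spread between the libraries included 1. Klf6, Klf9, Klf10 and Klf2 had ratios between 0.942 and 0.990, and Klf15 was nearly absent. The difference, Pink1 siRNA minus control, summed to 107 CPM over the 4 genes with a higher level, Klf15 among them, and to -104 CPM over the 6 with a lower level.

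**Figure D1:**
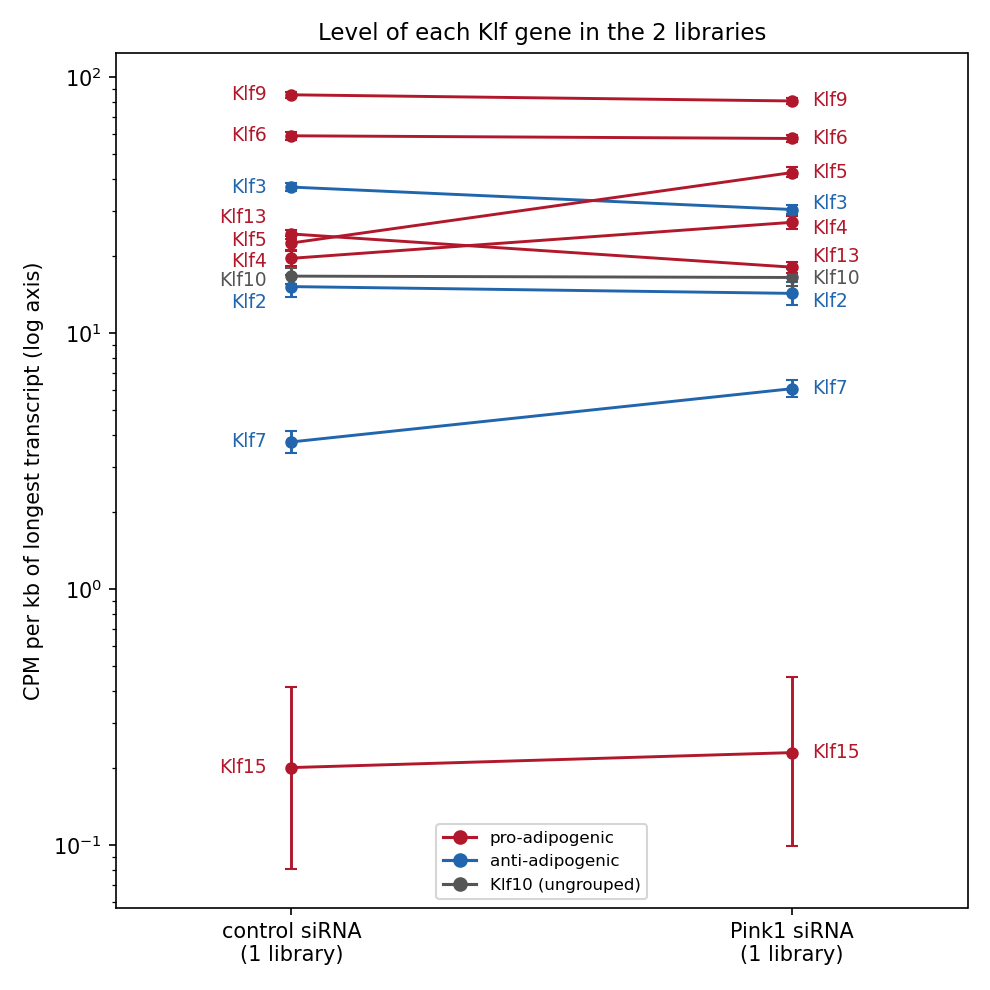
Level of each of the 10 Klf genes in the control siRNA and the Pink1 siRNA library, in CPM per kb of the longest annotated transcript on a log axis. Bars are exact 95% Poisson intervals, which cover counting error only, and colours give the adipogenic role. Klf9 and Klf6 are highest in both libraries, Klf5 goes from 22.5 to 42.4 and passes Klf3 and Klf13, and Klf15 lies far below the others.

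To order the genes, levels were divided by the length of the longest GENCODE M21 transcript, in kb. In the control library the order was Klf9 (85.3 CPM per kb), Klf6 (59.0), Klf3 (37.2), Klf13 (24.4), Klf5 (22.5), Klf4 (19.6), Klf10 (16.7), Klf2 (15.2), Klf7 (3.76) and Klf15 (0.201). In the Pink1 siRNA library it was Klf9 (80.7), Klf6 (57.6), Klf5 (42.4), Klf3 (30.4), Klf4 (27.1), Klf13 (18.1), Klf10 (16.5), Klf2 (14.3), Klf7 (6.07) and Klf15 (0.230). Klf5 thus moved from place 5 to place 3, and Klf13 from place 4 to place 6. By their Poisson intervals, neighbours in the control order that were not separated were Klf13 and Klf5 (23.4 to 25.4 against 21.2 to 23.9), and Klf10 and Klf2 (15.5 to 18.0 against 13.8 to 16.8). In the Pink1 siRNA library the intervals of Klf13 and Klf10 overlapped (17.2 to 19.0 against 15.3 to 17.8), as did those of Klf10 and Klf2. The kit is labelled Quant-Seq, a name used for kits that read transcript 3′ ends, where counts need no division by length. Whether these reads are 3′ tags or cover whole transcripts could not be settled from the sources used here, so neither order is preferred. Without the division, Klf7 and Klf2 changed places in both libraries (404 and 394 counts in the control library), and in the Pink1 siRNA library Klf3 was above Klf5 and Klf13 above Klf4.

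A gene was called measured with at least 40 counts over both libraries, which 9 of the 10 Klf genes and 11660 rows in all met. The first rule of size asked of a measured gene a 2-fold ratio in one direction and a 95% counting interval without 1. By that rule 0 of 9 Klf genes were higher and 0 lower, where 1.63% of all measured genes were higher and 2.39% lower. At a ratio of at least 1.5 with the same interval, 2 of 9 were higher, Klf5 and Klf7, and 0 were lower. Over all measured genes 5.43% were higher and 6.64% lower by this second rule. By the counting interval alone, 3 members lay above 1 (Klf4, Klf5 and Klf7) and 3 below (Klf3, Klf9 and Klf13), where 26.2% of measured genes lay above and 24.9% below. The Klf genes are better counted than most. Among the 5824 genes with at least the 765 summed counts of Klf2, the least counted measured member, 1.36% were higher and 1.08% lower at 1.5-fold. At 2-fold 0.0343% of these genes were higher and 0.0859% lower, so 0 of 9 by the first rule is near the share at this depth. Counting error is the smaller part of the spread between these libraries, so each interval was also widened by the excess spread among the 583 genes of the same twentieth of mean level. Klf5 and Klf7 were the members with a widened interval above 1, which 2.08% of measured genes had, and 0 members had one below 1 (1.93%).

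**Figure D2:**
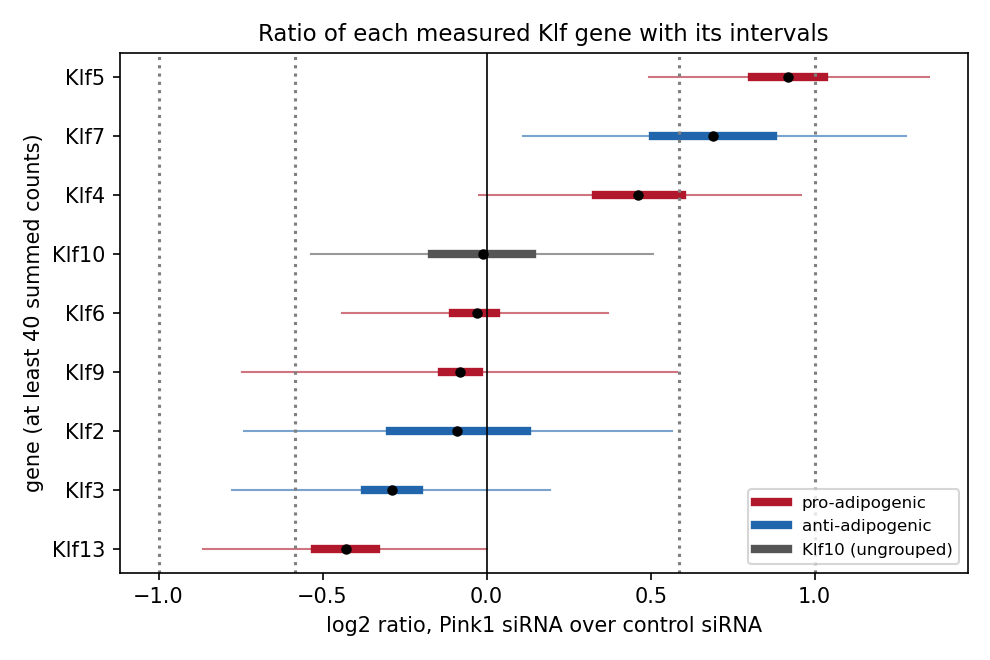
Log2 ratio, Pink1 siRNA over control siRNA, of the 9 measured Klf genes (points), with the exact 95% counting interval (thick bars) and the interval widened for the excess spread among genes of similar level (thin lines). Dotted lines mark ratios of 1.5 and 2 either way. Both intervals of Klf5 and Klf7 lie above 0, and the thin line of Klf13 ends at 0.

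Among the genes that promote adipogenesis, Klf5 differed most. Klf5, which acts on the Pparg promoter in early differentiation, had 1056 counts in the control library and 1993 in the Pink1 siRNA library, or 75.4 and 142 CPM. The ratio of 1.89 had counting limits of 1.75 and 2.04 and widened limits of 1.41 and 2.55. Of the 583 genes in its twentieth of mean level, no other had a ratio as far from 1 in either direction, and the middle 50% of their log2 ratios lay between -0.11 and 0.15. Klf5 spans bases 99298691 to 99313412 of chromosome 14 (mm10) and overlaps no other gene with at least 40 counts.

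Klf4, a factor of early differentiation and of pluripotency, had a smaller ratio that missed the rule. It had 832 and 1148 counts, or 59.4 and 82.0 CPM, a ratio of 1.38 with a counting interval of 1.26 to 1.51. The widened interval of 0.984 to 1.94 included 1, and within its twentieth of level Klf4 ranked 20 from the top of 583. Klf4 lies on chromosome 4 from 55527137 to 55532475.

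Klf13, an activator of Pparg in differentiating preadipocytes, had the lowest ratio of the family. It had 2183 counts in the control library and 1621 in the Pink1 siRNA library, or 156 and 116 CPM. This gave a ratio of 0.743 (counting interval 0.696 to 0.792). Its widened interval reached from 0.549 to 1.001 and so included 1. Within its twentieth of level it ranked 9 from the bottom of 583. Klf13 spans bases 63886351 to 63938915 of chromosome 7. It spans a listed noncoding gene, E030018B13Rik, that had 0 counts in both libraries.

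The most abundant members of this group were almost level between the libraries. Klf9, a glucocorticoid- and thyroid hormone-responsive factor, had 5362 and 5070 counts (383 and 362 CPM), a ratio of 0.946. Its counting interval of 0.910 to 0.983 left out 1, while the widened interval of 0.597 to 1.49 did not, and 446 of the 583 genes of its level had a ratio as far from 1. Klf6, an injury- and serum-responsive factor, had 3491 and 3409 counts (249 and 243 CPM). Its ratio of 0.977 had a counting interval of 0.931 to 1.02, so the libraries did not differ beyond counting error. Klf15, a factor of mature adipocytes, muscle and liver that acts on the glucose transporter gene Slc2a4, had 7 and 8 counts. At up to 0.571 CPM it was the member that missed the filter, and its counting interval of 0.362 to 3.70 leaves its direction undetermined at this depth.

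Of the genes that restrain adipogenesis, Klf7 passed the 1.5-fold rule and Klf3 and Klf2 did not. Klf7, a factor known for neuronal growth and for repression of adipocyte genes, had 404 and 651 counts, or 28.8 and 46.5 CPM. The ratio of 1.61 had counting limits of 1.42 and 1.83 and widened limits of 1.08 and 2.43. It ranked highest of the 583 genes in its twentieth of level, while 7 others lay as far from 1 on the lower side. Klf7 lies on chromosome 1 from 64029448 to 64122345 and overlaps no measured gene.

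Klf3, a repressor that recruits CtBP and acts on Cebpa, had 2717 counts in the control library and 2224 in the Pink1 siRNA library, or 194 and 159 CPM. Its ratio of 0.819 had a counting interval of 0.774 to 0.866, and the widened interval of 0.584 to 1.14 included 1. Within its twentieth of level it ranked 29 from the bottom of 583. Klf2, the flow-responsive endothelial factor that represses Pparg in preadipocytes, had 394 and 371 counts (28.1 and 26.5 CPM). Its ratio of 0.942, with a counting interval of 0.815 to 1.09, did not differ from 1 beyond counting error.

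Klf10, a TGF-beta-inducible early gene, had nearly the same level in the libraries. It had 712 and 705 counts (50.8 and 50.3 CPM), a ratio of 0.990 with a counting interval of 0.891 to 1.10. Of the 583 genes of its level 563 had a ratio at least as far from 1.

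**Figure D3:**
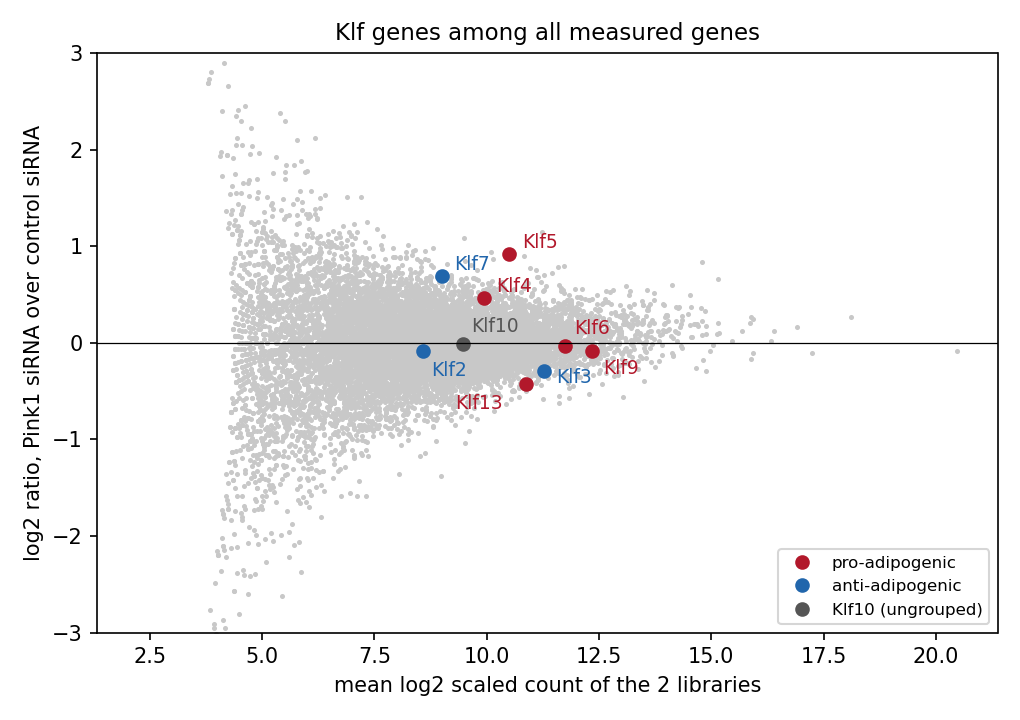
Log2 ratio, Pink1 siRNA over control siRNA, against the mean log2 scaled count of the 2 libraries for the 11660 measured genes (grey), with the 9 measured Klf genes coloured by adipogenic role. Klf5 and Klf7 lie at the upper edge of the cloud at their level and Klf13 near the lower edge, and 10 grey genes beyond a log2 ratio of 3 either way are not drawn.

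The roles in adipogenesis did not separate the genes by direction. Of the 5 measured genes that promote it, 2 had a ratio above 1 and 3 below, with a median log2 ratio of -0.03. Of the 3 that restrain it, 1 had a ratio above 1 and 2 below, with a median of -0.09. These directions take in Klf6 and Klf2, whose counting intervals included 1. In each group 1 gene had a widened interval that left out 1, Klf5 and Klf7, both above 1. The median of all 9 was -0.03, against 0.00 over all measured genes. The range was wide in both groups, from -0.43 to 0.92 on the log2 scale in the first and from -0.29 to 0.69 in the second. With Klf15 counted in, the first group's median was 0.07, since an even number of genes then averages Klf6 and Klf15.

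As a share of the family's counts, the promoting genes held 75.4% in the control library (exact binomial 95% interval 74.7 to 76.0) and 77.0% in the Pink1 siRNA library (76.4 to 77.7). The restraining genes held 20.5% (19.9 to 21.1) and 18.9% (18.3 to 19.5). All intervals of shares given here cover counting error only, which is the smaller part of the spread between these libraries. Shares of counts are not shares of transcripts where reads depend on length. The ratio of promoting to restraining counts was 3.68 in the control library and 4.08 in the Pink1 siRNA library. Without Klf5 the ratios were 3.38 and 3.47. The lower Klf3 count enters the same ratio, and the parts of single genes in it were not separated. The share of Klf5 alone went from 6.15% (5.80 to 6.52) to 11.6% (11.1 to 12.1), that of Klf13 from 12.7% (12.2 to 13.2) to 9.42% (8.99 to 9.87), and that of Klf3 from 15.8% (15.3 to 16.4) to 12.9% (12.4 to 13.4).

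Ratios of 2 members within a library need no scaling. These pairs were picked after their values were seen and are given as descriptions, with counting intervals. There were 0.484 Klf5 counts per Klf13 count in the control library and 1.23 in the Pink1 siRNA library, a 2.54-fold difference (interval 2.30 to 2.81). Klf5 per Klf3 went from 0.389 to 0.896 (2.31-fold, 2.10 to 2.53). Between the restraining genes, Klf7 per Klf3 went from 0.149 to 0.293 (1.97-fold, 1.71 to 2.26), and Klf7 per Klf2 from 1.03 to 1.75 (1.71-fold, 1.41 to 2.08). The ratio of Klf5 to Klf7 was closer, at 2.61 and 3.06 (1.17-fold, 1.01 to 1.36), as both genes were higher in the same library.

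The remaining Klf genes and the related Sp genes gave no call by either rule. At 1.5-fold 5.43% of all measured genes were higher and 6.64% lower, so no call in lists this short is near the general share. Of the 7 other Klf symbols present, 3 were measured, Klf16 (190 and 162 counts), Klf12 (144 and 136) and Klf11 (29 and 22), all with ratios below 1 and counting intervals that included 1. Klf8, Klf14 and Klf17 were at 0 in both libraries, which allows up to 0.214 CPM in each, and Klf1 had 4 and 0 counts. Sp1 to Sp4 were the measured members of the 9 Sp genes, whose proteins share the zinc finger type and bind GC boxes. Sp1 had 2662 and 2704 counts (log2 ratio 0.02), Sp3 had 1631 and 1565 (-0.06), Sp4 had 117 and 105 (-0.16) and Sp2 had 252 and 174 (-0.53). Sp3 overlaps Sp3os (347 and 369 counts) and Sp2 overlaps D030028A08Rik (80 and 68 counts), and since strand use in counting was not given, their counts are uncertain. Sp5, Sp7, Sp8 and Sp9 were at 0 in both libraries.

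No cofactor that Klf proteins bind passed either rule of size. All 14 were measured, 0 were called at 1.5-fold in either direction, and their log2 ratios ran from -0.18 to 0.47 with a median of -0.02. At 1.5-fold 5.43% of all measured genes were higher and 6.64% lower. Among genes with at least 765 summed counts the shares were 1.36% and 1.08%, so 0 of 14 is near the general share. The 2 largest in size were the deacetylase gene Hdac3 (333 and 463 counts, log2 ratio 0.47) and the corepressor gene Ctbp2 (1316 and 1567 counts, 0.25). Their counting intervals lay above 1 and their widened intervals included 1.

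Regulators upstream of Klf genes also gave no call, with 15 of 16 measured and a median log2 ratio of 0.07. This too is near the general share, as 5.43% of all measured genes were higher and 6.64% lower at 1.5-fold. Cebpb and Cebpd, whose proteins induce Klf5, had log2 ratios of 0.24 (783 and 926 counts) and 0.39 (3267 and 4295 counts), with widened intervals that included 1. Cebpd overlaps Spidr (383 and 545 counts), so its counts are uncertain. The signal transducer Stat5b had 380 and 562 counts (0.56) and the p53 gene Trp53 341 and 239 (-0.51), the 2 largest in size among those measured. Egr2, the partner of Klf4, had 67 and 63 counts.

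**Figure D4:**
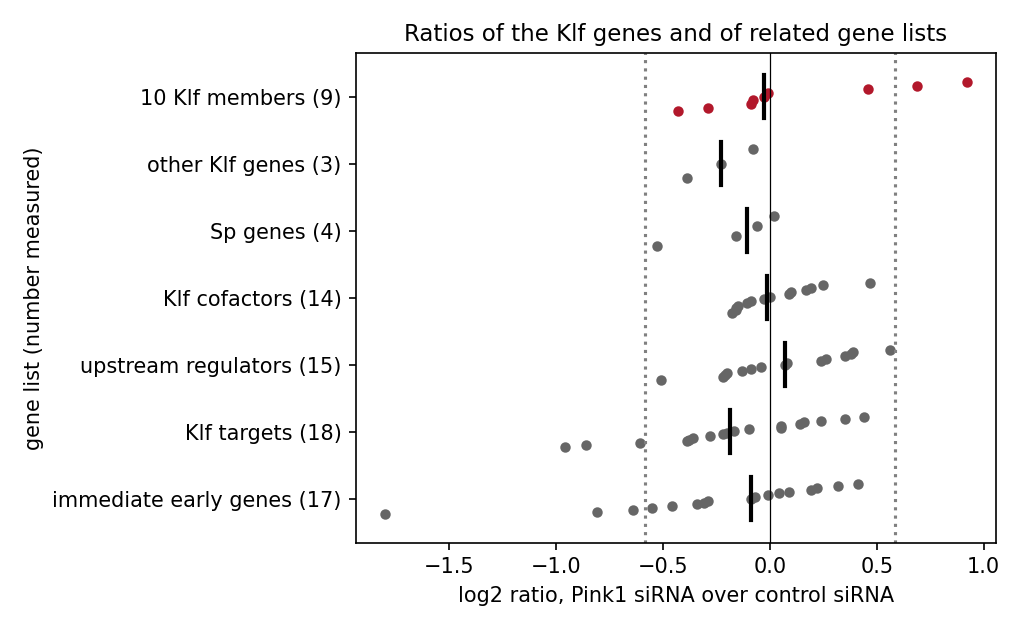
Log2 ratios, Pink1 siRNA over control siRNA, of the 9 measured Klf genes (red) and of the measured genes in 6 related lists (grey), with list medians as black bars. Dotted lines mark a ratio of 1.5 either way. The Klf genes have the highest single ratio of the 7 rows, 0.92 for Klf5, and the immediate early genes the lowest, -1.80 for Fos.

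Of 20 described Klf targets 18 were measured, 0 were higher and 3 lower at 1.5-fold, where 6.64% of all measured genes were lower. Pparg, a target of Klf5 and of Klf2, had 759 and 787 counts (log2 ratio 0.05), and Cebpa, a target of Klf3, had 265 and 236 (-0.17). The 3 called lower were Slc2a4, a target of Klf15 (49 and 25 counts, -0.96), the TGF-beta inhibitor Smad7, a target of Klf10 (84 and 46, -0.86), and the TGF-beta receptor gene Tgfbr1 (395 and 258, -0.61). All 3 widened intervals included 1. Dlk1, which Klf6 represses, had 116628 and 130666 counts (0.16) and was the 1 target with a widened interval that left out 1 (1.02 to 1.23), although its log2 ratio lay within the middle 50% of genes of its level (-0.08 to 0.21). The platelet-derived growth factor gene Pdgfa, a target of Klf5, had 756 and 964 counts (0.35). The median of the list was -0.18 on the log2 scale. Since it holds genes that Klf proteins activate and genes that they repress, this median gives no direction of Klf activity.

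Klf2, Klf4, Klf6 and Klf10 are themselves rapidly induced by serum and growth factors, so the classical immediate early genes were read beside them. Of 18 such genes 17 were measured, 0 were higher and 3 lower at 1.5-fold, where 5.43% of all measured genes were higher and 6.64% lower. The median log2 ratio of the list was -0.09. Fos, the AP-1 subunit, had 148 and 42 counts (-1.80) and was the 1 gene of the list called lower at 2-fold (2.39% of all measured genes), with a widened interval of 0.103 to 0.676. Egr1 had 3755 and 2561 counts (-0.55), short of 1.5-fold, with a widened interval of 0.504 to 0.918 that also lay below 1. Egr3 had 132 and 75 counts (-0.81) and Fosl1 350 and 225 (-0.64), with widened intervals that included 1, and Fosl1 overlaps Ccdc85b (560 and 451 counts). Klf4 at 0.46 was above the highest of the 17, the mRNA decay factor gene Zfp36 at 0.41, while Klf2, Klf6 and Klf10 were between -0.09 and -0.01.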

How the data were processed

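Per the labels' protocols, Trizol was used for total RNA and a Lexogen Quant-Seq kit for the libraries. The build was mm10 and the tools bedtools, Bowtie2 and bcl2fastq 2.20.0.422, per the submitters' processing notes. Not given in the sources used here were the annotation, strand use and the handling of multiply mapped reads. The authors deposited read counts per gene symbol, not normalized, 1 table per library. Molecular identifiers are not mentioned, so intervals and floors cover counting error only.

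Both tables held the same 23282 symbols, and 79 rows shared 35 symbols, none a Klf gene. The ribosomal RNA precursor row Rn45s, 10.8% and 9.83% of counts, was kept. Counts were scaled by TMM (edgeR 4.0.16, R 4.3.3). The log2 ratio used scaled counts with 0.5 added. Ratio intervals were exact conditional (Clopper-Pearson) binomial 95% intervals (SciPy 1.17.1). The widened interval divides both counts by the mean squared difference over its binomial variance in the gene's own twentieth of mean level, which was 14.6 for Klf5 and 9.57 for Klf7. Technical and biological spread both enter it, as does any response of those genes to the Pink1 siRNA. With 1 library per group it does not measure the spread between cultures. A count of 0 allows up to 3 counts. The scaling, ratios, calls and counting intervals were tested on simulated data with counting error only. The widened interval was not tested in that way. Coordinates (1-based) and promoters are from RefSeq GRCm38.p6 and lengths from GENCODE M21.

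Named genes were the 10 Klf genes, other Klf and Sp genes with 40 counts, Pink1, Pparg, Cebpa, Cebpb and Cebpd, and in the lists of cofactors, upstream regulators, targets and immediate early genes those called at 1.5-fold, or the 2 with the largest log2 ratio in size where there were none. Marker lists are given by their sums and called genes. Genes named beyond this rule, such as Dlk1, Egr1, Egr2, Pdgfa, Zfp36 and genes at 0, were chosen after their values were seen. The Klf genes and all lists were chosen with earlier results of these data known. Alternatives were total-count, DESeq2 (1.42.0) and upper-quartile scaling, removal of Rn45s, 5 added before the log, no filter, a summed count of 200, no interval and the widened interval.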

Additional observations from a re-analysis of the deposited data

How the results depend on the processing

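The counts of Klf genes called at 2-fold (0 higher, 0 lower) and at 1.5-fold (2 higher, 0 lower) were the same under all 9 alternatives that were run. Across them the log2 ratio of Klf5 lay between 0.87 and 0.92 and that of Klf7 between 0.65 and 0.69. With total-count scaling the medians of the promoting and restraining genes were -0.08 and -0.13. The median of the promoting genes took the other sign with no filter (0.07), because Klf15, at 0.18, then enters the list. The number of all measured genes called at 2-fold, 469 in the main setting, was 1450 with no filter, 66 at a summed count of 200 and 114 with the widened interval. No Klf gene overlapped a measured gene, so leaving such genes out was not run. No paired analysis was possible because each group has 1 library, and for the same reason no library could be left out. Depth limits Klf15, with 15 counts in all. The spread between cultures of one group is unknown.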
